A study of Mus musculus with 11 samples.

Results

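Lysosomal genes were described in S3 proximal tubules of mice that lack Tamm-Horsfall protein, also called uromodulin, and of wild-type mice. The genes were a list of 51 chosen by function, covering soluble hydrolases, lysosomal membrane proteins, the V-type proton pump and the transcription factors Tfeb and Tfe3. Each was represented by the probe set annotated with that symbol alone and with the highest mean signal over all arrays. That rule found 49 of the 51 among 22180 genes and 41345 probe sets. Glb1, the lysosomal beta-galactosidase, was measured only by a probe set that also carries a second symbol, and no probe set carried Atp6v0c, so neither was analysed here.

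Both groups were of strain 129/SvEv, with the genotype given as THP -/- for 5 arrays and as WT for 6. Each array carried kidney S3 tubule material, labelled from 2 ng of total RNA, and the labels used here give no age, sex or treatment. They leave unsaid whether the arrays of a group came from different mice, so each p here reflects array-to-array spread alone, which may be technical. The arrays fall into labelled batches, with 3 knockout and 5 wild-type arrays in batch 1 and 2 knockout arrays and 1 wild-type array in batch 2. Values are log2 signals, the medians of the arrays ranged from 3.85 to 4.01, and precision is limited by how many arrays there are.

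Lysosomes break down material delivered by endocytosis and autophagy, using hydrolases that work at acid pH. The V-type ATPase pumps protons into the lumen with a cytosolic V1 sector that hydrolyses ATP and a membrane V0 sector that carries the protons. Proximal tubule cells take up filtered proteins through the receptors megalin and cubilin and degrade them in lysosomes. TFEB and TFE3 enter the nucleus when the lysosome is stressed or starved and bind E-box sequences in front of many lysosomal genes.

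The labels were set against marker genes first. Umod (Entrez 22242, probe 17495637), the targeted gene, averaged 4.49 ± 0.582 in knockout arrays and 5.80 ± 0.579 in wild-type arrays (SD, n = 5 and 6). In knockout replicates 1 to 5 it read 3.68, 4.26, 4.67, 4.55 and 5.27, against 5.80, 5.27, 6.20, 5.53, 5.27 and 6.74 in wild-type replicates 1 to 6. Of the knockout arrays 4 lay below every wild-type array, and replicate 5 lay level with wild-type replicates 2 and 5. The adjusted p of Umod in limma was 0.281. No source used here places this probe set inside or outside the deletion. All 7 general proximal tubule markers lay above the array median on every array, as did 6 of 7 S3 markers. Knockout replicate 4 stood apart in markers of neighbouring segments. Its mean over 5 thick ascending limb markers was 7.91, against 5.85 to 6.52 on the other knockout arrays and 5.33 to 6.29 on wild-type arrays. Its mean over 5 principal cell markers of the collecting duct was 6.28, where the other arrays lay between 4.44 and 5.36. Its mean over 9 intercalated cell markers was 5.07, where the other arrays lay between 4.06 and 4.43.

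As a group, the lysosomal genes leaned towards higher signal in knockout tubules, and none of them passed the test over all probe sets. Of the 49, 42 had a log2 difference (knockout minus wild type, batch-adjusted) above 0 and 7 below, or 85.7% above 0. Over all genes tested 53.4% were above 0. Most lysosomal genes, 45 of 49, were brighter than the median probe set, and among genes that bright 59.6% were above 0. The median log2 difference was 0.17 over the lysosomal genes, 0.01 over all genes and 0.05 over the brighter genes. With limma and Benjamini-Hochberg adjustment, 0 of 49 members passed an adjusted p of 0.05, and 0.0% of all probe sets did. At an unadjusted p under 0.05 there were 7 members, all higher in knockout, or 14.3% of the list, against 5.64% of all genes in either direction and 3.64% towards knockout. Among brighter genes 6.66% reached that level, 4.93% towards knockout and 1.74% towards wild type. The 7 were Gusb, Idua, Arsa, Ctsz, Atp6v0b, Atp6v1a and Atp6ap1, and all 7 had positive differences within both batches. They were picked for a small p on these same arrays, so their signs within batches are no separate check. Batch 2 has a single wild-type array. Within both batches 36 members were above 0, or 73.5%, against 29.9% of all genes. The groups did not separate fully for any member, while 0.433% of all genes and 0.637% of the brighter ones had every knockout array above every wild-type array. Some genes below had 4 knockout arrays above every wild-type array. The share of all genes for which this held was not computed. The difference between the batches' genotype effects, tested as an interaction in limma, had an unadjusted p under 0.05 for 0 of 49 members and for 3.27% of all genes.

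**Figure D1:**
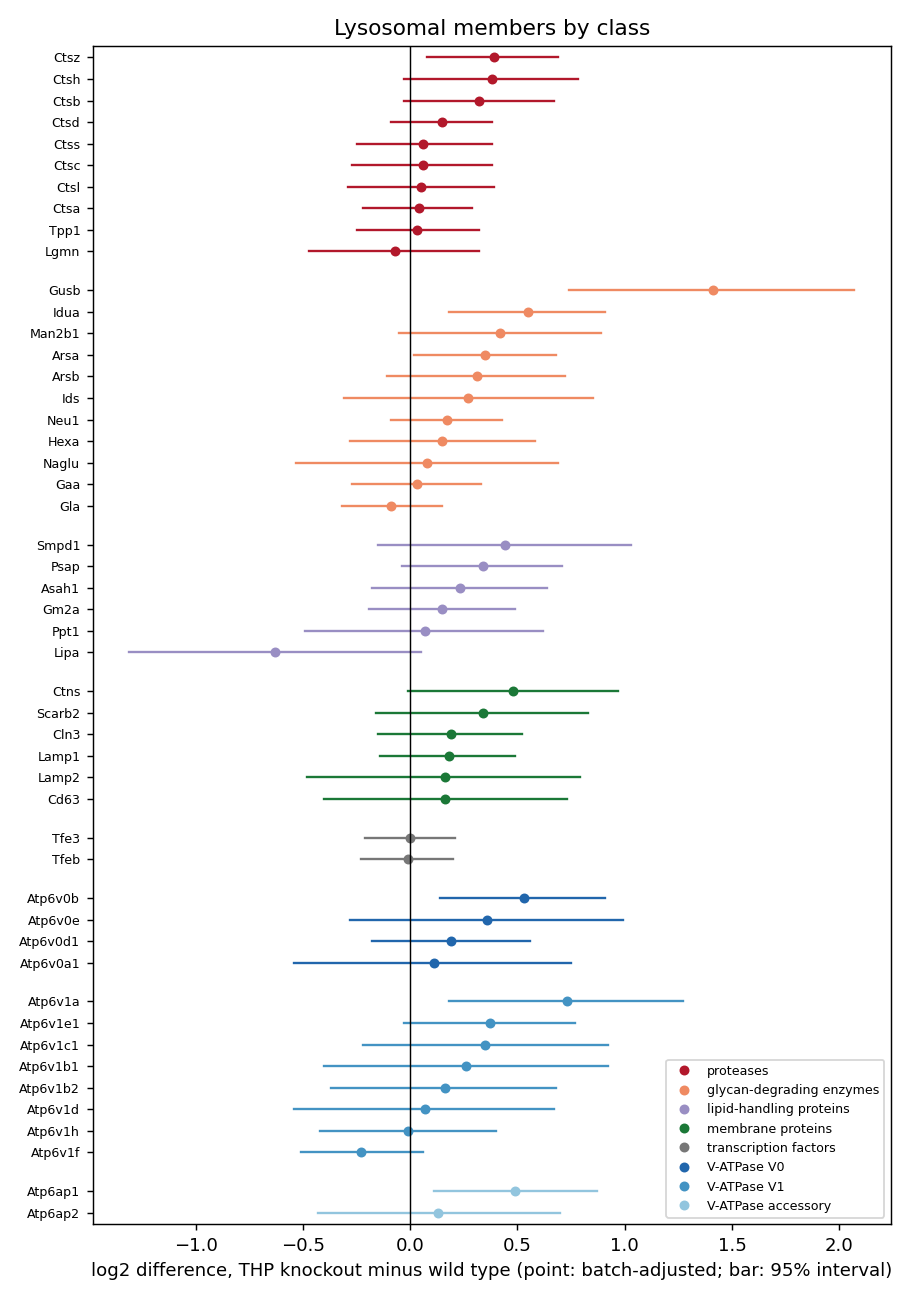
Batch-adjusted log2 difference, knockout minus wild type, of each of the 49 measured lysosomal genes (point) with its 95% interval (bar), grouped and coloured by class. Gusb lies furthest right at 1.41, Lipa furthest left at -0.63, and Tfeb and Tfe3 lie close to 0 with short intervals.

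The lean was carried unevenly by the arrays. For each gene the mean over all arrays was subtracted, and the deviations were averaged over the 49 genes. Knockout replicates 1 to 5 deviated by -0.10, -0.05, 0.37, 0.48 and 0.02. Wild-type replicates 1 to 6 deviated by 0.00, -0.13, -0.08, -0.30, -0.24 and 0.05. Knockout replicates 3 and 4 were thus the high arrays and wild-type replicates 4 and 5 the low ones, while the other 3 knockout arrays overlapped the wild-type range. For 39 of the 49 genes (79.6%) the highest of all arrays was knockout replicate 3 or 4, which held for 22.4% of all genes and 31.5% of the brighter ones. For 16 of the 49 (32.7%) the lowest was wild-type replicate 4, which held for 14.6% of all genes and 20.9% of the brighter ones. Without knockout replicate 3 the median difference of the list was 0.09, with 35 of 49 above 0, and 4 members were at an unadjusted p under 0.05. In that fit 54.2% of all genes were above 0. Without knockout replicate 4 the median was 0.12, with 39 above 0, against 54.1% of all genes. Of the 42 genes above 0, 30 stayed above 0 whichever array was left out, and 8 of the others turned below 0 without knockout replicate 3. Without knockout replicate 5 the median was 0.24, and 11 members were at an unadjusted p under 0.05. The share of all genes at that p is not given for fits with an array left out.

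**Figure D2:**
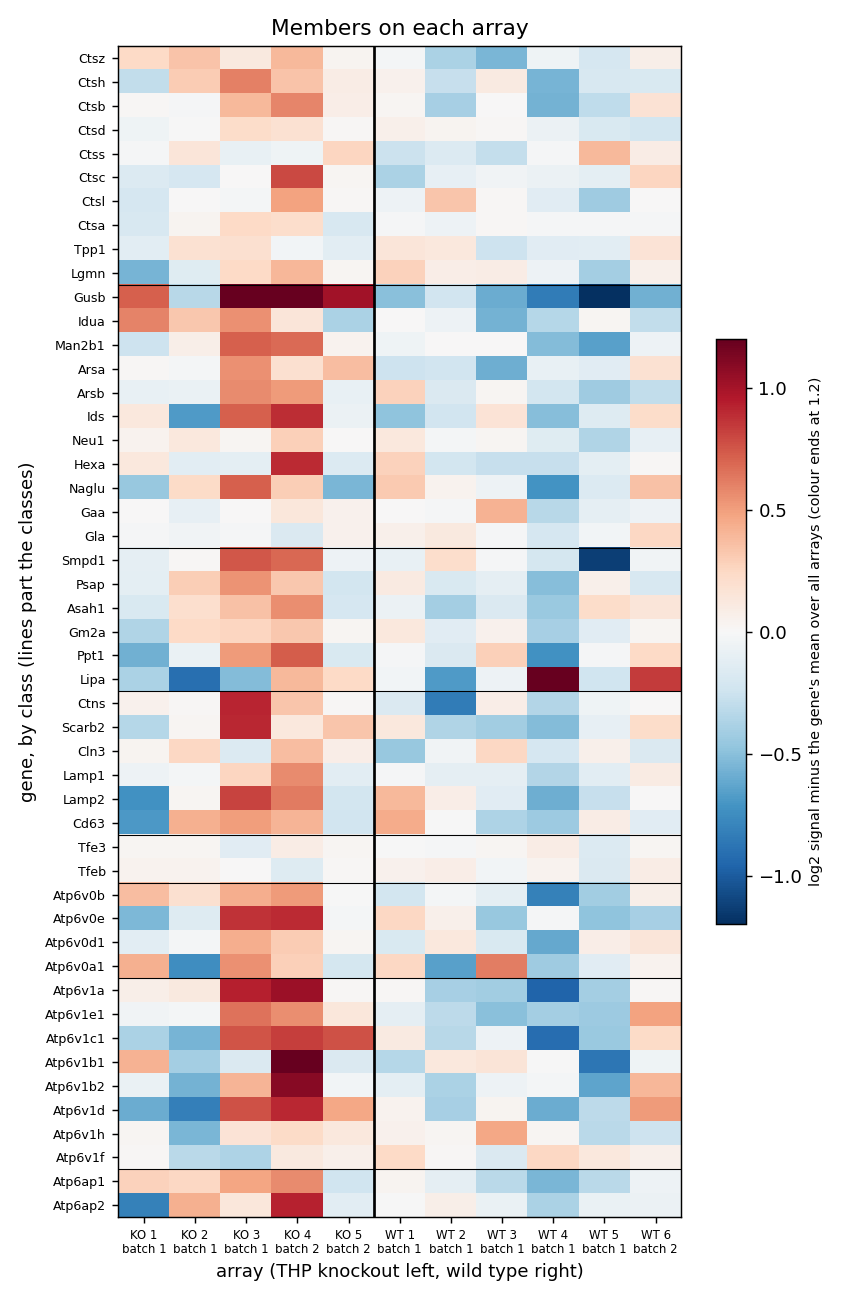
Log2 signal of each lysosomal gene on each array minus its mean over all arrays, with knockout arrays left of the vertical line, wild-type arrays right of it, and horizontal lines between classes. Red runs down the columns of knockout replicates 3 and 4 in nearly every class, and the columns of wild-type replicates 4 and 5 are mostly blue.

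Markers of the S3 segment and of the thick ascending limb were high or low on some of the same arrays, and those of S1 and S2 matched only in part. The mean over 7 S3 markers was 8.35 to 9.47 in knockout arrays, highest in replicate 3, and 7.79 to 8.92 in wild-type arrays, lowest in replicate 4. All 7 S3 markers had differences above 0, with a median of 0.43, and Slc22a7 and Atp11a were at an unadjusted p under 0.05. All 7 markers of the S1 and S2 segments had differences below 0, with a median of -0.33, and Slc5a12 was at -0.63 with an unadjusted p under 0.05. Their mean was 5.98 and 6.46 on knockout replicates 3 and 4 and 6.48, the highest of all arrays, on wild-type replicate 4. Replicate 4 was the highest knockout array for these markers, and wild-type replicate 5, at 5.5, was the lowest wild-type array. All 5 thick ascending limb markers were above 0, with a median of 0.41. Macrophage markers averaged 4.09 to 4.33 in knockout and 4.0 to 4.28 in wild-type arrays, and 4 of 11 lay below the array median on every array. Csf1r, the receptor for colony-stimulating factor 1 and the brightest on that list, was at 0.58 ± 0.19 (SE) with an unadjusted p under 0.05 and 4 knockout arrays above every wild-type array. The other 10 lay between -0.10 and 0.11. The part of segment make-up and of macrophages in the lysosomal differences was not tested, and in such bulk RNA fewer cells of a type and less RNA per cell cannot be told apart.

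**Figure D3:**
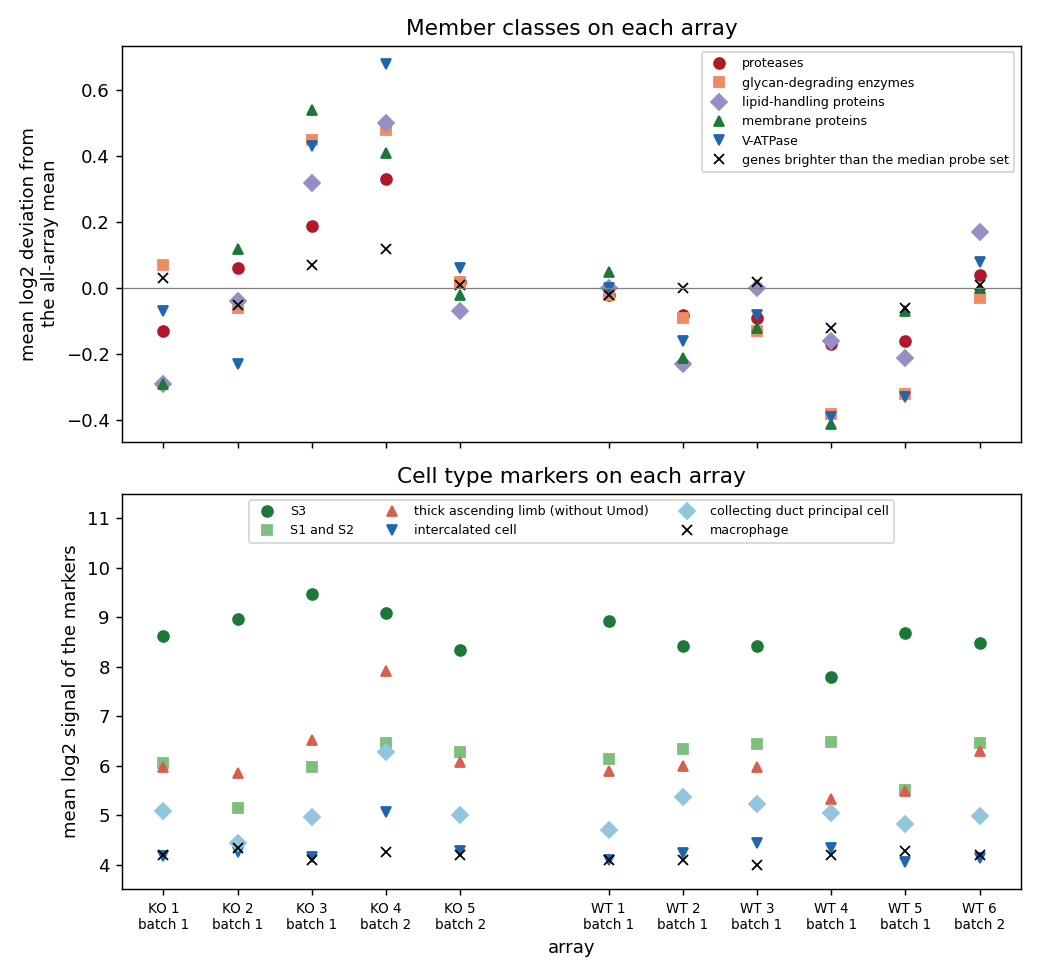
Upper panel, mean log2 deviation from the all-array mean for each class of lysosomal genes on each array, with genes brighter than the median probe set as crosses; lower panel, mean log2 signal of cell type markers on the same arrays. The V-ATPase reaches 0.68 and the thick ascending limb markers 7.91 on knockout replicate 4, and the S3 markers lie highest on knockout replicate 3 and lowest on wild-type replicate 4.

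Enzymes that take apart glycans held the largest single difference. Gusb (Entrez 110006, probe 17453160) encodes beta-glucuronidase, which removes terminal glucuronic acid from glycosaminoglycans and whose transcript is known in mouse kidney for its induction by androgen. It read 7.91, 6.86, 8.45, 8.66 and 8.20 in knockout replicates 1 to 5, against 6.69, 6.96, 6.59, 6.35, 5.80 and 6.61 in wild-type replicates 1 to 6. In all, 4 knockout arrays lay above every wild-type array, and knockout replicate 2 lay below only wild-type replicate 2. The log2 difference was 1.41 ± 0.30 (SE), or 2.65-fold, with a 95% interval from 0.74 to 2.07. It was 1.26 within batch 1 and 1.82 within batch 2, and 1.2 without knockout replicate 3. The limma adjusted p was 0.453, and an exact two-sided permutation of genotype within batches gave p = 0.0119. Of the 22180 genes, 31 had an unadjusted p as small, and 10 had a log2 difference as large.

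Idua (Entrez 15932, probe 17440293) encodes alpha-L-iduronidase, which acts on heparan and dermatan sulfate. It read 5.72, 5.45, 5.67, 5.27 and 4.74 in knockout replicates 1 to 5. In wild-type replicates 1 to 6 it read 5.13, 5.06, 4.56, 4.78, 5.15 and 4.83. Again 4 knockout arrays lay above every wild-type array, with replicate 5 among the lowest of all. The batch-adjusted log2 difference was 0.55 ± 0.17 (SE), 0.68 within batch 1 and 0.17 within batch 2, with an adjusted p of 0.698 from limma, and exact permutation of genotype within batches gave p = 0.0298.

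Of the 11 glycan-degrading enzymes measured, 10 had differences above 0 and 3 were at an unadjusted p under 0.05, with a median of 0.27. Over all genes 53.4% were above 0 and 5.64% at that p, and 59.6% and 6.66% among brighter genes. The third was Arsa, the sulfatase for sulfatide, at 0.35 ± 0.15 (SE), on a dim probe set that lay above the array median on 4 of the 11 arrays, and it was 0.20 without knockout replicate 3. Man2b1, the lysosomal alpha-mannosidase, was at 0.42, had 4 knockout arrays above every wild-type array, and was at 0.24 without knockout replicate 3. Arsb and Ids, sulfatases of glycosaminoglycans, were at 0.31 and 0.27, but at 0.17 and 0.04 without knockout replicate 3. The sialidase Neu1 was at 0.17. Hexa, a subunit of beta-hexosaminidase, was at 0.15, and at 0.03 without knockout replicate 4. The heparan sulfate enzyme Naglu was at 0.08, and at -0.15 without knockout replicate 3. The glycogen-degrading Gaa was at 0.03, and at -0.03 without wild-type replicate 4. Gla, alpha-galactosidase A, was the lowest at -0.09, on a dim probe set that lay above the array median on 1 of the 11 arrays. A second, dimmer probe set of Arsb gave -0.05, where the one used gave 0.31. Without knockout replicate 4 the median of the class was 0.17.

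The proteases differed less. Of 10 measured, 9 lay above 0, but the median was 0.06, close to the 0.05 of the brighter genes, and 5 of the 9 lay below 0.10. The share above 0 was 53.4% over all genes and 59.6% among brighter genes. Ctsz (Entrez 64138, probe 17395155), a carboxypeptidase of the cathepsin family, read 7.53, 7.63, 7.41, 7.68 and 7.32 in knockout replicates 1 to 5. In wild-type replicates 1 to 6 it read 7.27, 6.91, 6.74, 7.24, 7.09 and 7.36, so the groups overlapped only by knockout replicate 5 and wild-type replicate 6, both of batch 2. Its log2 difference was 0.39 ± 0.14 (SE), or 1.31-fold, with 0.47 within batch 1 and 0.14 within batch 2. In limma its adjusted p was 0.761, and by exact permutation within batches p was 0.0298.

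Ctsh (Entrez 13036, probe 17520233), an aminopeptidase of the same family, read 7.87, 8.47, 8.77, 8.51 and 8.26 in knockout arrays. Wild-type arrays read 8.22, 7.89, 8.28, 7.61, 7.98 and 7.99, and knockout replicate 1 lay below 5 of these 6. The log2 difference was 0.38 ± 0.18 (SE), with a limma adjusted p of 0.823, and it was 0.24 without knockout replicate 3. The endopeptidase Ctsb was at 0.32 and the aspartic protease Ctsd at 0.15, or 0.09 without wild-type replicate 6. Ctsa, which shields sialidase and beta-galactosidase from breakdown, the dipeptidyl peptidase Ctsc, Ctsl, Ctss and the tripeptidyl peptidase Tpp1 lay between 0.03 and 0.06. With 1 array left out these 5 ranged from -0.04 (Ctsa without knockout replicate 3) to 0.14 (Ctss without wild-type replicate 5). Lgmn, the asparagine-specific endopeptidase, was the lowest protease at -0.07, and at 0.08 without knockout replicate 1. Ctss, which is typical of antigen-presenting cells, read 4.14 to 4.48 in knockout and 3.94 to 4.61 in wild-type arrays.

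Among the proteins that handle lipids, Lipa alone had a difference below 0. Psap (Entrez 19156, probe 17233629) encodes the precursor of the saposins, which present sphingolipids to their hydrolases. It ran from 9.90 to 10.66 with a median of 10.41 in knockout arrays, and from 9.61 to 10.22 with a median of 9.97 in wild-type arrays. Its lowest array was wild-type replicate 4, and knockout replicate 5 lay below all wild-type arrays but that one. This gave a log2 difference of 0.34 ± 0.17 (SE), with a limma adjusted p of 0.823.

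Lipa (Entrez 16889, probe 17364114), the acid lipase that frees cholesterol from its esters, had the most negative difference of the list. It read 5.46, 4.93, 5.32, 6.23 and 6.08 in knockout arrays and 5.80, 5.16, 5.78, 7.17, 5.60 and 6.68 in wild-type arrays. Wild-type replicates 4 and 6 were the high arrays, and the other 4 wild-type arrays lay within the knockout range. The log2 difference was -0.63 ± 0.31 (SE), with a limma adjusted p of 0.823, and -0.40 without wild-type replicate 4. On wild-type replicate 4, where Lipa was highest, the mean deviation over the whole list was -0.30. Acid sphingomyelinase Smpd1 was at 0.44, or 0.25 without knockout replicate 3, and its second probe set gave -0.10. Acid ceramidase Asah1 was at 0.23, the GM2 activator Gm2a at 0.15 and the thioesterase Ppt1 at 0.07. Without knockout replicate 3 these were 0.14, 0.07 and -0.13. In all, 5 of 6 lay above 0, with a median of 0.19 that was 0.11 without knockout replicate 3 and 0.30 without knockout replicate 1. Of all genes 53.4% lay above 0, and of brighter genes 59.6%.

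All 6 lysosomal membrane proteins lay above 0, also within each batch, and none reached an unadjusted limma p under 0.05. Over all genes 53.4% were above 0 and 29.9% were above 0 within both batches, and 59.6% and 36.3% among brighter genes. Ctns (Entrez 83429, probe 17265733), which exports cystine from the lysosome and is mutated in cystinosis, read 5.16, 5.13, 6.03, 5.45 and 5.13 in knockout arrays. Wild-type arrays read 4.94, 4.27, 5.19, 4.76, 5.06 and 5.12, so only knockout replicates 3 and 4 passed the highest wild-type array. Its log2 difference was 0.48 ± 0.22 (SE), with a limma adjusted p of 0.813, and 0.26 without knockout replicate 3. Exact permutation of genotype within batches gave p = 0.0476 for Ctns. Scarb2 (Entrez 12492, probe 17449749), which carries glucocerebrosidase to lysosomes, read 4.39, 4.76, 5.64, 4.86 and 5.07 in knockout and 4.86, 4.37, 4.32, 4.21, 4.63 and 4.95 in wild-type arrays. Its log2 difference was 0.34 ± 0.23 (SE) and 0.07 without knockout replicate 3, so that array decided its size. The abundant glycoproteins Lamp1 and Lamp2 were at 0.18 and 0.16, the tetraspanin Cd63 at 0.16 and Cln3, whose loss causes Batten disease, at 0.19. Without knockout replicate 3, Lamp1 was at 0.11, Lamp2 at -0.10 and Cd63 at 0.02, while without knockout replicate 1 Lamp2 was at 0.42 and Cd63 at 0.43. Without wild-type replicate 6 Cln3 was at 0.12. The median of the class was 0.18, but 0.09 without knockout replicate 3 and 0.42 without knockout replicate 1.

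**Figure D4:**
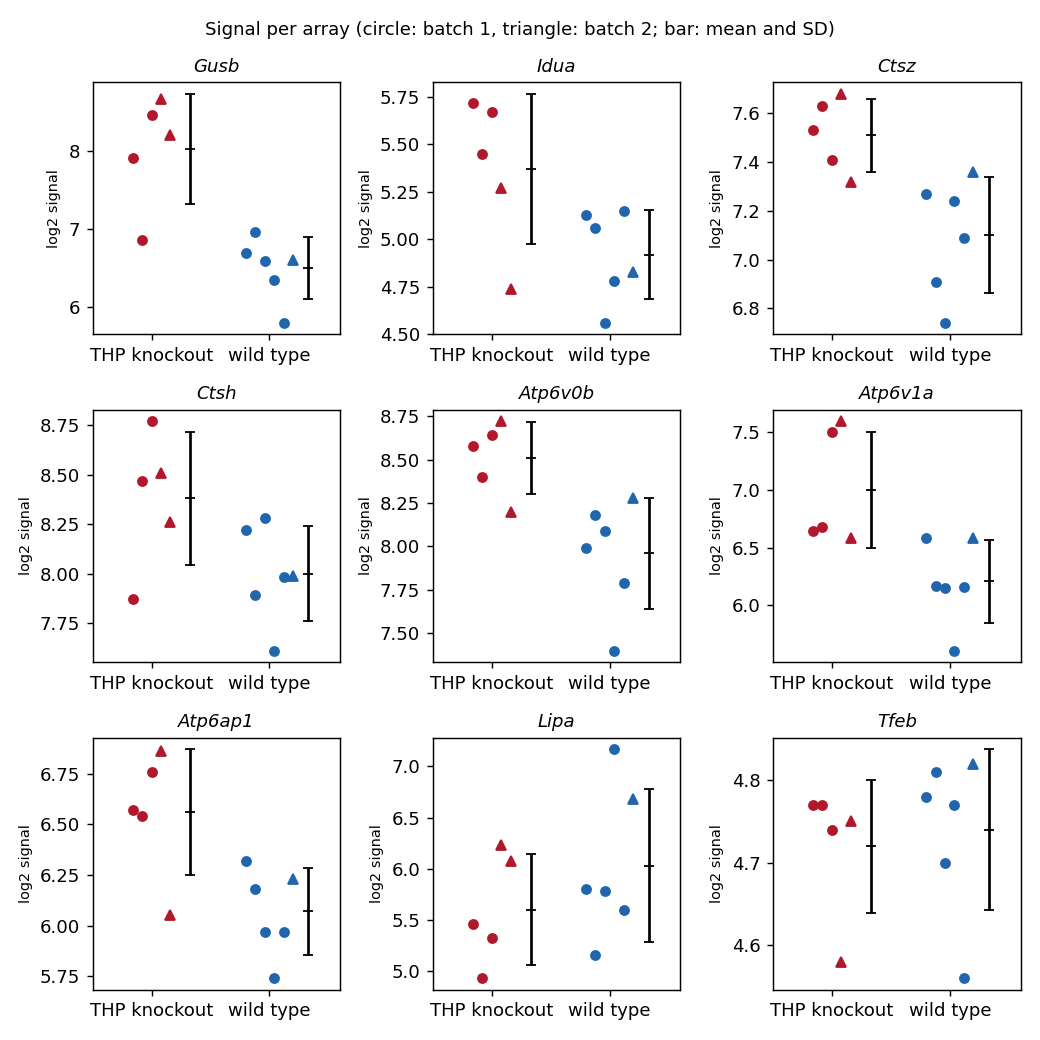
Log2 signal of 9 lysosomal genes on each array, knockout left and wild type right, with circles for batch 1, triangles for batch 2 and a bar for the mean and SD of each group. For Gusb, Idua, Ctsz, Atp6v0b, Atp6v1a and Atp6ap1, 4 knockout arrays lie above every wild-type array. These genes were picked for a small p on the same arrays. The share of all genes with such a pattern was not computed. Lipa is high on wild-type replicates 4 and 6, and Tfeb spans a narrow range in both groups.

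Among 14 measured subunits of the proton pump, 12 lay above 0, with a median of 0.22, and 3 were at an unadjusted p under 0.05. Over all genes 53.4% were above 0 and 5.64% at that p, and 59.6% and 6.66% among brighter genes. In the V0 sector, Atp6v0b (Entrez 114143, probe 17428946), a proteolipid of the proton-carrying ring, read 8.58, 8.40, 8.64, 8.72 and 8.20 in knockout arrays. Wild-type arrays read 7.99, 8.18, 8.09, 7.40, 7.79 and 8.28, and the groups overlapped only by the batch 2 arrays knockout replicate 5 and wild-type replicate 6. Its log2 difference came to 0.53 ± 0.18 (SE), or 1.44-fold, with 0.65 within batch 1 and 0.18 within batch 2. Its adjusted p in limma was 0.758, with 0.0298 by exact permutation within batches.

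Atp6v0e (Entrez 11974, probe 17334948), a small V0 subunit, read 5.45, 5.84, 6.86, 6.89 and 5.97 in knockout and 6.24, 6.05, 5.54, 5.98, 5.51 and 5.59 in wild-type arrays. Only knockout replicates 3 and 4 lay above the wild-type range, and the log2 difference of 0.36 ± 0.29 (SE) was 0.12 without knockout replicate 3. Atp6v0d1, which couples the ring to the central stalk, was at 0.19, and Atp6v0a1, an isoform of the large V0 subunit, at 0.11. Without knockout replicate 3 these were 0.06 and -0.07.

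In the V1 sector, Atp6v1a (Entrez 11964, probe 17330523), the subunit that hydrolyses ATP, read 6.64, 6.68, 7.5, 7.59 and 6.58 in knockout arrays. Wild-type arrays read 6.58, 6.17, 6.15, 5.61, 6.16 and 6.58. The lowest knockout array lay level with the highest wild-type arrays, and knockout replicates 3 and 4 were the highest. The log2 difference was 0.73 ± 0.25 (SE), or 1.66-fold, with an adjusted p of 0.758 in limma, 0.0298 by exact permutation within batches, and a difference of 0.52 without knockout replicate 3. Atp6v1e1 (Entrez 11973, probe 17470445), a subunit of the peripheral stalk, read 7.47, 7.49, 8.16, 8.07 and 7.65 in knockout and 7.40, 7.20, 7.01, 7.10, 7.07 and 7.99 in wild-type arrays. Its difference was 0.37 ± 0.18 (SE), 0.55 within batch 1 and -0.13 within batch 2, where the only wild-type array was the highest of the 6, and 0.18 without knockout replicate 3.

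The B subunit has isoforms, of which Atp6v1b1 is typical of intercalated cells and Atp6v1b2 is found in most tissues. Atp6v1b1 (Entrez 110935, probe 17460107) read 5.32, 4.49, 4.73, 6.21 and 4.73 in knockout and 4.56, 5.03, 5.05, 4.89, 4.03 and 4.85 in wild-type arrays. Its high array was knockout replicate 4, the array with high markers of intercalated cells and other distal segments, and the difference of 0.26 ± 0.30 (SE) was 0.08 without it. Atp6v1b2 (Entrez 11966, probe 17501652) read 6.77, 6.28, 7.25, 7.94 and 6.81 in knockout and 6.73, 6.47, 6.78, 6.82, 6.21 and 7.24 in wild-type arrays. Its difference was 0.16 ± 0.24 (SE), turned to -0.01 without knockout replicate 3, and was -0.21 ± 0.19 (SE) by a second probe set. Of subunits typical of intercalated cells outside the list, Atp6v0a4, which the proximal tubule also makes, was at -0.01, Atp6v0d2 at -0.03 and below the median of every array, and Atp6v1g3 at 0.09. All were highest on knockout replicate 4. There Atp6v1g3 read 5.54, against 3.46 to 4.16 on the other arrays, and Atp6v0a4 read 8.51, against 7.01 to 8.16. Atp6v0d2 and Atp6v1g3 also belong to the 9 intercalated cell markers averaged above. Atp6v1c1 was at 0.35 and Atp6v1d at 0.07, or 0.09 and -0.26 without knockout replicate 3 and 0.53 and 0.28 without knockout replicate 2. Atp6v1h was at -0.01, or 0.17 without knockout replicate 2, and Atp6v1f, the lowest of the pump, was at -0.23.

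Accessory proteins assist assembly and sorting of the pump. Atp6ap1 (Entrez 54411, probe 17535792) read 6.57, 6.54, 6.76, 6.86 and 6.05 in knockout and 6.32, 6.18, 5.97, 5.74, 5.97 and 6.23 in wild-type arrays. There were 4 knockout arrays above every wild-type array, and replicate 5 lay within their range. Knockout minus wild type came to 0.49 ± 0.17 (SE), or 1.41-fold, with an adjusted p of 0.758 in limma and 0.0298 by exact permutation within batches. Atp6ap2 (Entrez 70495, probe 17533336), also known as the prorenin receptor, read 6.24, 7.48, 7.19, 7.98 and 6.93 in knockout and 7.05, 7.12, 6.97, 6.67, 6.97 and 6.98 in wild-type arrays. Both the highest and the lowest array were knockout arrays, and the difference was 0.13 ± 0.26 (SE), or 0.41 without knockout replicate 1 and -0.01 without knockout replicate 2. For the pump as a whole the median of 0.22 was 0.09 without knockout replicate 3, 0.12 without knockout replicate 4 and 0.39 without knockout replicate 2.

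The transcription factors that drive lysosomal genes did not share the lean. Tfeb (Entrez 21425, probe 17338328) read 4.77, 4.77, 4.74, 4.58 and 4.75 in knockout and 4.78, 4.81, 4.70, 4.77, 4.56 and 4.82 in wild-type arrays. Tfe3 (Entrez 209446, probe 17532953) read 4.98, 4.98, 4.82, 5.04 and 4.98 in knockout and 4.95, 4.94, 4.98, 5.04, 4.79 and 4.98 in wild-type arrays. Both spanned a narrow range, and the groups lay on top of each other. The 95% interval of the log2 difference ran from -0.23 to 0.20 for Tfeb and from -0.21 to 0.21 for Tfe3, with limma adjusted p of 0.990 and 0.998. The arrays measure transcript, while these factors are controlled largely by where the protein lies in the cell.

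Promoters of the lysosomal genes were searched for the E-box CACGTG, which reads the same on both strands, and for its longer form TCACGTGA, which contains it and which TFEB binds. The windows were RefSeq promoters of build GRCm38.p6, from 250 bases before to 50 after each start, and 45 of the 51 genes had a window. CACGTG stood in 15 of the 45 (33.3%), against 8.09% of 27025 genes with a window and 9.39% of 15379 protein-coding genes on the array. TCACGTGA stood in 7 (15.6%), against 1.12% and 1.5% of the same genes. More than a single CACGTG stood in 6 (13.3%), against 0.681% of all. By class, 4 of 8 proteases, 5 of 12 glycan-degrading enzymes, 2 of 6 membrane proteins, 4 of 12 pump subunits and 0 of 5 lipid-handling proteins held CACGTG. Among the genes that hold CACGTG, the stretches below were chosen for repeated or long copies or for a small p here. They read 5′ to 3′ on the gene's strand and end at or before the start, with the motifs in capitals.
Lamp1: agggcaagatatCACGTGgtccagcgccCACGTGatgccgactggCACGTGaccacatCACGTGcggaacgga
Cln3: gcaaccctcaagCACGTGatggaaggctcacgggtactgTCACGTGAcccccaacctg
Ctsa: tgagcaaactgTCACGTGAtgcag
Ctsd: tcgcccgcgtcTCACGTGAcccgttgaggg
Gla: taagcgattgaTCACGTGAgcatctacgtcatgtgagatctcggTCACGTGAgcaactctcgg
Arsa: tcaactcagtgtCACGTGttgtctgctc
Atp6v0b: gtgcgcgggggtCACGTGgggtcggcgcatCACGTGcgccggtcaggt
Atp6v1a: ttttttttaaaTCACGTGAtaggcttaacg

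The Lamp1 stretch lies at chr8:13159088-13159160 on the plus strand and holds 4 copies within 73 bases of the start. The Cln3 stretch lies at chr7:126583340-126583397 on the minus strand, the Ctsa stretch at chr2:164833749-164833772 on the plus strand and the Ctsd stretch at chr7:142387908-142387937 on the minus strand. The Gla stretch lies at chrX:134601182-134601244, the Arsa stretch at chr15:89477425-89477452, the Atp6v0b stretch at chr4:117887330-117887377 and the Atp6v1a stretch at chr16:44139373-44139402, all on the minus strand. The median log2 difference was 0.16 over 14 measured members with CACGTG, which ran from -0.09 to 0.73, and 0.16 over 29 without it, which ran from -0.63 to 1.41. The difference between these members was not tested. It was 0.19 over the 7 with TCACGTGA, where Gla was lowest at -0.09 and Atp6v1a highest at 0.73. Gusb, with the largest difference, had no CACGTG in its window. Neither had Idua, Ctsz and Atp6ap1, which were also at an unadjusted limma p under 0.05.

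Other lysosomal genes, from a list of 63 that shares no gene with the first, leaned the same way but less. Of 58 measured, 42 (72.4%) lay above 0, against 53.4% of all genes and 59.6% of brighter genes. The median log2 difference was 0.09, and 0 passed the limma adjusted p of 0.05. At an unadjusted p under 0.05 there were 3 higher and 1 lower, or 6.9%, against the 5.64% of all genes. Galns (Entrez 50917, probe 17513779), a sulfatase that acts on keratan and chondroitin sulfate, read 8.48, 8.56, 9.12, 9.13 and 8.17 in knockout arrays and 8.30, 7.97, 8.01, 7.53, 7.82 and 7.65 in wild-type arrays. Its difference was 0.85 ± 0.21 (SE), 0.79 within batch 1 and 1.0 within batch 2, with a limma adjusted p of 0.586. Acp5, the tartrate-resistant acid phosphatase, read 6.87 to 7.20 in knockout and 6.49 to 6.80 in wild-type arrays, without overlap, at a difference of 0.37 ± 0.11 (SE). Its limma adjusted p was 0.674. The groups separated fully for 1 of the 58, against 0.433% of all genes and 0.637% of brighter genes towards knockout. Sumf1, which activates all sulfatases, was at 0.38 ± 0.16 (SE), 0.54 within batch 1 and -0.06 within batch 2. Ostm1, a partner of the lysosomal chloride exchanger, was lowest at -0.40. Mean deviations over this list were again highest in knockout replicates 3 and 4, at 0.23 and 0.39, and lowest in wild-type replicate 4, at -0.23.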

How the data were processed

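The deposited table holds log2 values for 11 arrays. Per the submitters' processing notes, the authors used Partek 6.6 and RMA, which corrects background, equalises array distributions and summarises probe sets. No source used here says if batch was corrected before deposit. Probe sets were named from the platform annotation: 23521 carried 1 symbol, 1814 several and 16010 none. No detection values were used, so dim signals have no tested background.

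All probe sets were fitted with limma 3.58.1 in R 4.3.3 (genotype and batch as fixed terms, eBayes, two-sided, Benjamini-Hochberg over 41345 probe sets, 8 residual degrees of freedom), after a check on simulated data. Named members were also tested by exact permutation of genotype within batches (168 arrangements, smallest possible p 0.00595). Beside the values given above, permutation p was 0.0774 for Ctsh, 0.0714 for Lipa, 0.107 for Psap and 0.185 for Scarb2. For the pump it was 0.321 for Atp6v0e, 0.0536 for Atp6v1e1, 0.488 for Atp6v1b1, 0.56 for Atp6v1b2 and 0.643 for Atp6ap2, and for Tfeb it was 0.756. Permutation was not run over all genes. Lists were described by counts and medians beside all genes, without a test. Plots used matplotlib 3.10.9. The members, classes, marker lists and naming rule (in each class the 2 members of smallest p, the lowest and the highest difference, both transcription factors and both B subunits; of the other lysosomal genes the 3 of smallest p and 3 subunits of intercalated cells) were chosen with earlier results of these data known. Other members are named within the account of their class. Alternatives were no batch term, batch as a random block, each batch alone, a replicate block, quantile normalization, median centring, brighter probe sets only, array weights, a robust trend in eBayes, the mean of a gene's probe sets, and each array left out. Same-numbered arrays of the 2 genotypes did not deviate together (correlations -0.181 to 0.0118), so numbers were not used as pairs.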

Additional observations from a re-analysis of the deposited data

Results flagged for a closer look

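Values of the named genes and class means were examined for an array far from the rest of its group, in 56 groups of values, of which about 1 in 20, or 2.8, would be picked by chance. There were 4. Tfeb on knockout replicate 4 was 4.58, with the next knockout array at 4.74. Tfe3 on knockout replicate 3 was 4.82, with the next at 4.98. Atp6ap2 on wild-type replicate 4 was 6.67, with the next wild-type array at 6.97. The mean deviation of the transcription factors on wild-type replicate 5 was -0.17, with the next array at 0.00.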

How the results depend on the processing

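In each of the 22 alternative settings, 0 of the measured members passed the adjusted p where a test was run, and the list's median stayed above 0 (0.08 to 0.23, or 0.09 to 0.25 with 1 array left out). Members above 0 numbered 35 to 45, or 35 to 43 with 1 array left out. Over all genes 50.4% to 59.6% were above 0 in these settings, or 51.3% to 54.5% with 1 array left out. With brighter probe sets only, 40 of 45 members were above 0, against 59.6% of genes. With median centring 45 of 49 were above 0, against 58.5% of genes. The 7 members at an unadjusted p under 0.05 became 12 without a batch term, 12 with batch as a random block, 4 with a replicate block, and between 4 and 11 with 1 array left out. No share of all genes at that p is given for these settings. With the replicate block 35 members lay above 0, against 54.8% of all genes, the median was 0.08, and again 0 members passed the adjusted p of 0.05. Signs of named genes turned as follows: Tfeb to 0.04 in batch 1 alone and 0.01 with median centring (-0.05 to 0.04 with 1 array left out), Tfe3 to 0.01 without a batch term, 0.02 with the random block, 0.02 with median centring and 0.03 in batch 2 alone (-0.03 to 0.04), Atp6ap2 to -0.08 with the replicate block (-0.01 to 0.41), Atp6v1b1 to -0.03 with the replicate block, Atp6v1b2 to -0.03 with the mean of its probe sets (-0.01 to 0.32), and in batch 2 alone Atp6v1e1 to -0.13, against 0.37 over both batches, and Sumf1 to -0.06, against 0.38. Batch 2 has a single wild-type array. The causes were not tested.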

Other observations

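Gusb was set beside other kidney genes known for induction by androgen, chosen after the values were seen. Odc1, ornithine decarboxylase, read 8.32, 6.92, 8.43, 9.41 and 8.75 in knockout arrays and 7.97, 7.38, 7.89, 7.62, 6.36 and 7.68 in wild-type arrays, a log2 difference of 0.70 ± 0.38 (SE) with a limma adjusted p of 0.826. As for Gusb, 4 knockout arrays lay above every wild-type array and replicate 2 did not. Kap, the kidney androgen-regulated protein, averaged 11.77 in knockout and 11.70 in wild-type arrays, a difference of 0.02 ± 0.24 (SE). Xist, which is transcribed from the inactive X chromosome, read 2.35 to 2.96 in knockout and 2.39 to 2.88 in wild-type arrays, below the median of every array. Eif2s3y, a gene of the Y chromosome, averaged 5.05 in knockout and 4.76 in wild-type arrays, above the median of every array. Its log2 difference was 0.24 ± 0.15 (SE), and sex was not tested.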
